A study of Mus musculus with 8 samples.

Results

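The clustered protocadherins are cell surface adhesion proteins of the cadherin superfamily, encoded in tandem alpha, beta and gamma clusters. In the mouse genome the clusters lie next to each other on chromosome 18. Each alpha or gamma transcript joins its own large first exon, with its own promoter, to constant exons that all genes of that cluster share, whereas each beta gene is a complete gene in a single exon. Individual neurons express different combinations of these genes, and the proteins bind copies of themselves on other membranes. In the mouse retina the gamma proteins are known for self-avoidance of starburst amacrine cell dendrites and for the survival of retinal neurons.

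The rows were taken by name from the deposited table, as those called Pcdha, Pcdhb, Pcdhga, Pcdhgb, Pcdhgc or Pcdhac with a number, and 23 of 16096 genes matched. RNA was sequenced from peripheral retinas that were taken from C57BL/6 embryos at embryonic day 16.5. In 4 libraries the labelled genotype was Pax6alpha-Cre:Ezh2fl/null, in which Cre recombinase can remove the floxed (fl) allele of Ezh2 and the other allele is null. In the other 4 it was Pax6alpha-Cre:Ezh2fl/+, in which the other allele is wild type. Ezh2 is the enzyme of Polycomb repressive complex 2 (PRC2) that methylates histone H3, and the comparison asks how transcript levels differ between these genotypes. Both groups carry Cre, from a driver that is active in peripheral retina. Where Cre acts, the Ezh2fl/+ libraries come from cells that can keep a wild-type allele, and where Cre does not act, the Ezh2fl/null cells still carry their floxed allele beside the null allele. Embryos and litters are not named in the labels, and p-values therefore measure only how these samples spread, which may be technical. In a dissected tissue, fewer cells of a type and less RNA per cell cannot be told apart.

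Total counts ran from 13994825 to 18391647 per library. Whole-gene Ezh2 counts were no lower under the Ezh2fl/null label. They stood at 276, 251, 255 and 220 CPM (counts scaled to library sizes that were normalized by the trimmed mean of M-values, TMM) in the libraries labelled Ezh2fl/null and at 235, 230, 197 and 207 CPM in those labelled Ezh2fl/+. The log2 fold change was 0.21 with an SE of 0.07, and edgeR's quasi-likelihood test with Benjamini-Hochberg adjustment put it at adjusted p = 0.0701. An exact permutation test of both directions reached p = 0.0857, and could have gone down to 0.0286. A count over the whole gene does not check the deletion of single exons, so every direction below is that of the labels. Xist was counted 1874 and 1714 times in Ezh2fl/null replicates 2 and 3 and at most 4 times in each of the other 6 libraries, so the sexes of the embryos were not balanced.

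The deposited table does not resolve the alpha and gamma genes. The alpha cluster had 1 row, Pcdha2 (ENSMUSG00000007440), the gamma cluster had 1 row, Pcdhga9 (ENSMUSG00000023036), and the beta cluster had 21 rows, Pcdhb2 to Pcdhb22. GENCODE release M21 annotates 14 alpha, 22 beta and 22 gamma genes on the mm10 assembly, all on the plus strand of chromosome 18. The alpha genes lie between 36930184 and 37187661, the beta genes between 37264938 and 37524479, and the gamma genes between 37661793 and 37841873. In that release the identifier of the Pcdha2 row belongs to a gene named Pcdha11 (37005203 to 37187657, 4 exons), and the identifier of the Pcdhga9 row to Pcdhgc4 (37815079 to 37841873, 4 exons).

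The lengths behind the authors' FPKM values (counts scaled by gene model length and library size) put the models of the alpha and gamma rows above the M21 model of their identifier. The Pcdha2 row implies a model of 24686 bases, 4.61 times the 5359 exon bases of its identifier in M21 and 0.606 times the 40755 exon bases of the whole alpha cluster. The Pcdhga9 row implies 26111 bases, 4.67 times the 5596 bases of its identifier and 0.368 times the 70891 bases of the gamma cluster. The sources used here do not say which first exons these models hold. The exon sequence that at least 2 annotated genes share is 2864 bases in the alpha cluster and 3265 bases in the gamma cluster. How reads of these shared exons were counted is not stated in the sources used here. The alpha and gamma rows are therefore not read here as levels of the isoform whose symbol they carry. They stand for their cluster below, over models shorter than its M21 exon bases. No value is given for the C-type genes Pcdhac1, Pcdhac2, Pcdhgc3, Pcdhgc4 and Pcdhgc5.

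The beta rows stand for single genes. Each is annotated as 1 exon, and the implied lengths ran from 2342 to 7136 bases, within 10% of the M21 exon length for 15 of 21 genes. The beta genes resemble each other in sequence. Between 1.5% (Pcdhb14) and 12% (Pcdhb12) of the stretches of 50 bases in a beta transcript also occur in the transcript of another beta gene, with a median of 4.82%. Pcdhb21 (37513621 to 37518325) and Pcdhb22 (37517871 to 37524479) overlap by 455 bases. The sources used here do not say how reads from such stretches were counted, and values of single beta genes are uncertain to that extent.

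Of the 23 rows the gamma row had the highest level per length, and its values and those of the alpha row and the summed beta genes are given here by library. Pcdhga9 stood at 316, 320, 313 and 348 CPM in the libraries labelled Ezh2fl/null and at 305, 280, 306 and 292 CPM in those labelled Ezh2fl/+. Each value labelled Ezh2fl/null was above each value labelled Ezh2fl/+, but the nearest values, 313 and 306 CPM, lay close together. Pcdha2 stood at 81.8, 74.6, 74.3 and 76.4 CPM in the libraries labelled Ezh2fl/null and at 78.0, 63.9, 66.9 and 64.4 CPM in those labelled Ezh2fl/+. Here the groups overlapped through Ezh2fl/+ replicate 1, which was higher than the other controls. The 21 beta genes summed to 159, 192, 155 and 165 CPM in the libraries labelled Ezh2fl/null and to 182, 160, 186 and 177 CPM in those labelled Ezh2fl/+. The groups overlapped, with Ezh2fl/null replicate 2 the highest of the 8 libraries and Ezh2fl/+ replicate 2 the lowest of its group.

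**Figure D1:**
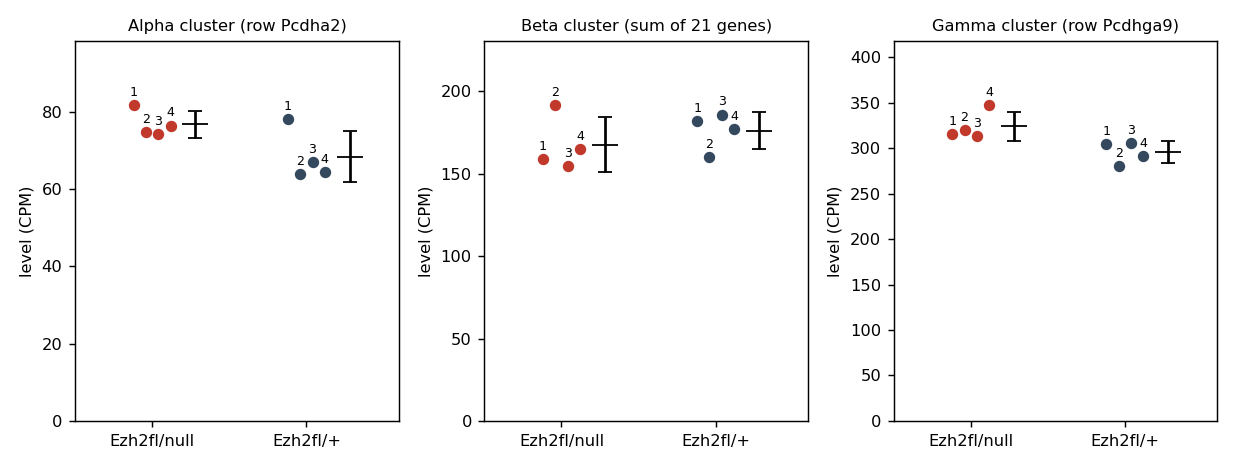
Level of each protocadherin cluster in CPM (vertical axis) in the 4 libraries labelled Ezh2fl/null and the 4 labelled Ezh2fl/+; points are libraries with their replicate number, and the bar beside them is the mean with its SD. The gamma row lies at 313 to 348 CPM against 280 to 306 CPM, and the alpha and beta values of the groups overlap. Alpha and gamma are single rows, whose models are shorter than the exon bases of their cluster.

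Per length, the gamma row averaged 12.5 ± 0.817 FPKM in the libraries labelled Ezh2fl/null and 11.2 ± 0.255 FPKM in those labelled Ezh2fl/+ (SD, n = 4 each). The alpha row averaged 3.14 ± 0.177 FPKM in the libraries labelled Ezh2fl/null and 2.74 ± 0.191 FPKM in those labelled Ezh2fl/+ (SD, n = 4 each). Since the content of these rows is not known, no level of a single isoform is read from them. The median level of all tested genes was 6.80 FPKM, and 2 of the 23 protocadherin rows, Pcdhga9 and Pcdhb17, were above it.

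Within the beta cluster, the genes at the downstream end had the higher levels per length. Mean levels over the 8 libraries ran from 0.390 FPKM for Pcdhb13 to 6.97 FPKM for Pcdhb17, with a median of 1.64 FPKM. The 7 genes from Pcdhb16 to Pcdhb22, which lie next to each other and closest to the gamma cluster, held 61.2% of the beta counts. Their mean levels ran from 2.32 to 6.97 FPKM (median 2.73), against 0.390 to 3.0 FPKM (median 1.52) for the 14 genes from Pcdhb2 to Pcdhb15. Pcdhb7 was the highest of those 14. Across the 21 genes, position along the chromosome and mean level had a Spearman correlation of 0.55. This describes genes of the same libraries, which are not independent replicates. For some genes the implied length was shorter than in M21, such as Pcdhb22 at 3069 bases against 6609 and Pcdhb17 at 3271 against 4660. On CPM, which uses no length, the correlation with position was 0.56. Longer transcripts give more counts, and the downstream genes had implied lengths of up to 7136 bases, against up to 3790 for the others. The CPM value therefore cannot decide what the lengths add to this order.

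The order of the beta genes was close to the same under both labels. The Spearman correlation of their mean FPKM between the groups was 0.96 across the 21 genes. The beta gene with the most counts was Pcdhb17, at 22.4, 26.5, 20.1 and 23.6 CPM in the libraries labelled Ezh2fl/null and at 22.6, 19.3, 23.8 and 24.4 CPM in those labelled Ezh2fl/+. Pcdhb19 stood at 17.5, 24.2, 18.2 and 15.8 CPM in the libraries labelled Ezh2fl/null, against 20.6, 19.9, 20.6 and 19.7 CPM in those labelled Ezh2fl/+. Both sets of values overlapped, and the highest value of each gene was that of Ezh2fl/null replicate 2. Pcdhb16 stood at 17, 19.4, 16.4 and 17.9 CPM in the libraries labelled Ezh2fl/null and at 24.0, 17, 20.1 and 19.9 CPM in those labelled Ezh2fl/+. Pcdhb22 stood at 11.1, 13.0, 10.3 and 11.1 CPM in the libraries labelled Ezh2fl/null and at 14.1, 12.1, 15.2 and 11.1 CPM in those labelled Ezh2fl/+. These groups overlapped as well.

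**Figure D2:**
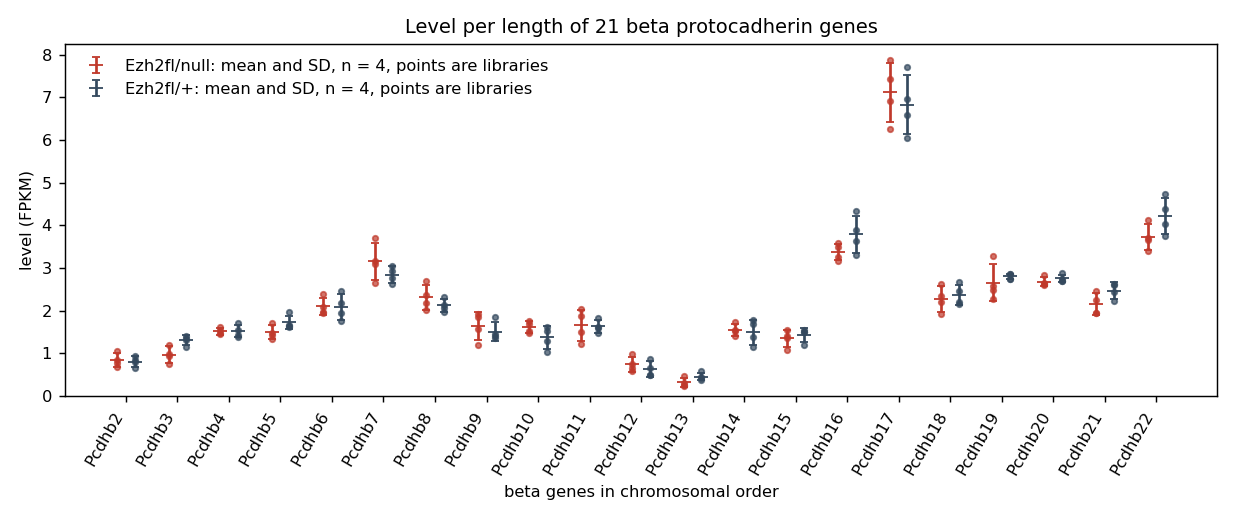
Level per length in FPKM (vertical axis) of the 21 beta genes in chromosomal order (horizontal axis); points are libraries, and marks give the mean and SD of the 4 libraries labelled Ezh2fl/null and of the 4 labelled Ezh2fl/+. Pcdhb17 is the highest at a mean of 6.97 FPKM, and Pcdhb13 the lowest at 0.390 FPKM.

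No clustered protocadherin gene was called between the genotypes. All 23 passed the filter on low counts and were tested, and 0 had an adjusted p under 0.05 in edgeR's quasi-likelihood test, where 11.8% of the 15014 genes tested were called. At an unadjusted p under 0.05 there were 5 of the 23 (21.7%), against 24.0% of all genes. DESeq2 and limma voom also called 0 of the 23, where they called 10.7% and 11.9% of all genes. The groups did not overlap for 1 of the 23 rows, Pcdhga9 (4.35%, against 16.3% of all genes). The median log2 fold change of the 23 rows was -0.02, beside -0.01 for all genes tested.

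The limits of the fold changes give the precision of these values. The 95% limits of the log2 fold change lay within a 2-fold change in either direction for 22 of the 23 rows and within 1.5-fold for 20. The exception at 2-fold was Pcdhb13, the least counted beta gene, with 14 to 32 counts per library and limits of -1.06 to -0.03. The limits reached from the estimate by 0.11 on the log2 scale for Pcdhga9, with 4073 to 5874 counts per library and by 0.52 for Pcdhb13. For Pcdhga9 the coefficient of variation between replicates was 4.92% in the libraries labelled Ezh2fl/null and 4.23% in those labelled Ezh2fl/+, beside 1.44% from counting alone. For the beta genes the median coefficient of variation between replicates was 13.7% in the libraries labelled Ezh2fl/null and 12.5% in those labelled Ezh2fl/+, beside 10.6% from counting alone.

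**Figure D3:**
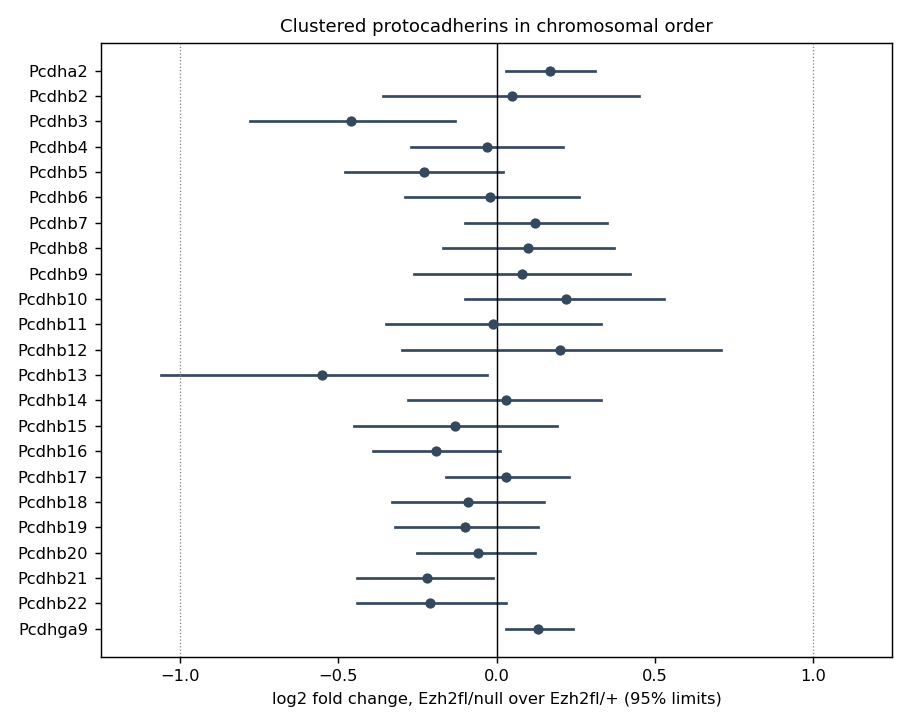
Log2 fold change of each of the 23 rows, libraries labelled Ezh2fl/null over those labelled Ezh2fl/+ (horizontal axis), in chromosomal order from top to bottom; points are edgeR estimates, lines their 95% limits, and dotted lines mark a 2-fold change. No row reached an adjusted p under 0.05, and the limits of Pcdhb13 alone pass the dotted line.

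The alpha and gamma rows had small positive fold changes. Pcdha2 was at log2 0.17 (SE 0.07, 95% limits 0.03 to 0.31; edgeR adjusted p = 0.120) and Pcdhga9 at 0.13 (SE 0.05, limits 0.03 to 0.24; edgeR adjusted p = 0.110). Without Ezh2fl/+ replicate 1, the control with the highest alpha value, Pcdha2 was at 0.24 with an edgeR adjusted p of 0.0162, and the 17 alternatives spanned 0.0162 to 0.290. Pcdhga9 passed in none of the 17, with adjusted p from 0.0912 to 0.297. The authors' deposited table lists log2 ratios of 0.16 for Pcdha2 and 0.13 for Pcdhga9.

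The beta genes lay on both sides of 0. Of the 21, 13 had a negative fold change and 8 a positive one, 61.9% negative beside 52.4% of all genes tested, and their median was -0.03. Of the 7 downstream genes, 6 were negative, as were 7 of the 14 others. With libraries scaled by total counts alone, 11 of the 21 were negative, and without Ezh2fl/null replicate 2 there were 15. Pcdhb10 had the largest positive value, at log2 0.22 (SE 0.15; edgeR adjusted p = 0.426), from 4.19, 4.94, 4.26 and 4.88 CPM in the libraries labelled Ezh2fl/null and 4.87, 4.26, 3.09 and 3.56 CPM in those labelled Ezh2fl/+. Those values overlapped. Pcdhb13 had the largest negative value, at log2 -0.55 (SE 0.24; edgeR adjusted p = 0.181), from 0.860, 1.18, 0.918 and 1.73 CPM in the libraries labelled Ezh2fl/null and 1.5, 2.10, 1.61 and 1.62 CPM in those labelled Ezh2fl/+. The groups overlapped through Ezh2fl/null replicate 4, and without it Pcdhb13 was at -0.80 (edgeR adjusted p = 0.0415; the 17 alternatives spanned 0.0415 to 0.549).

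Pcdhb3 had the smallest p of the 23 and is named after its values were seen. It stood at 2.79, 3.69, 4.53 and 3.65 CPM in the libraries labelled Ezh2fl/null and at 5.24, 4.26, 5.54 and 5.01 CPM in those labelled Ezh2fl/+. The groups overlapped through Ezh2fl/null replicate 3 and Ezh2fl/+ replicate 2. Its log2 fold change had an estimate of -0.46 with 95% limits of -0.78 to -0.13 (SE 0.15) and an edgeR adjusted p of 0.067. It passed in 2 of 17 alternatives, without Ezh2fl/null replicate 3 (log2 -0.58, edgeR adjusted p = 0.0313) and with the 6 libraries without Xist (-0.64, edgeR adjusted p = 0.049), while the 17 alternatives spanned 0.0313 to 0.183. In the authors' deposited table its log2 ratio is -0.42.

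The other beta genes had overlapping groups as well. Pcdhb21 stood at 9.03, 11.8, 8.99 and 10.2 CPM in the libraries labelled Ezh2fl/null and at 10.9, 11.1, 12.8 and 11.9 CPM in those labelled Ezh2fl/+ (log2 -0.22, 95% limits -0.44 to -0.01, edgeR adjusted p = 0.190). Of its 4 Ezh2fl/null values, that of replicate 2 alone lay within the control range. Pcdhb5 stood at 6.02, 5.36, 4.66 and 4.94 CPM in the libraries labelled Ezh2fl/null and at 6.14, 5.63, 6.10 and 6.74 CPM in those labelled Ezh2fl/+ (log2 -0.23, limits -0.48 to 0.02, edgeR adjusted p = 0.256). Here replicate 1 was the Ezh2fl/null library that reached the controls. Pcdhb7, the highest of the upstream genes per length, stood at 10.7, 13.4, 9.18 and 10.8 CPM in the libraries labelled Ezh2fl/null and at 9.66, 10.1, 10.2 and 10.4 CPM in those labelled Ezh2fl/+ (log2 0.12, limits -0.10 to 0.35, edgeR adjusted p = 0.536). Its Ezh2fl/null values lay on both sides of the controls. The remaining 11 beta genes (Pcdhb2, Pcdhb4, Pcdhb6, Pcdhb8, Pcdhb9, Pcdhb11, Pcdhb12, Pcdhb14, Pcdhb15, Pcdhb18 and Pcdhb20) had log2 fold changes from -0.13 for Pcdhb15 to 0.20 for Pcdhb12, and the limits of each held 0. In Pcdhb12, 64.2% of the stretches of 50 bases also occur in another gene, since the antisense gene Gm37446 overlaps it.

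Ratios between the clusters within a library do not depend on how libraries are scaled. There were 50.4, 60.2, 49.4 and 47.6 beta counts per 100 gamma counts in the libraries labelled Ezh2fl/null, and 59.6, 57.4, 60.7 and 60.7 in those labelled Ezh2fl/+. Replicates 1, 3 and 4 labelled Ezh2fl/null were below the range of the controls, and replicate 2 was inside it. Beta counts per 100 alpha counts were 194, 258, 208 and 217 in the libraries labelled Ezh2fl/null and 233, 251, 278 and 275 in those labelled Ezh2fl/+, again with replicate 2 inside the control range. Alpha counts per 100 gamma counts were 25.9, 23.3, 23.7 and 22 in the libraries labelled Ezh2fl/null and 25.6, 22.9, 21.9 and 22.1 in those labelled Ezh2fl/+, and these overlapped. The ratios were chosen after the values were seen and are given with no test.

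**Figure D4:**
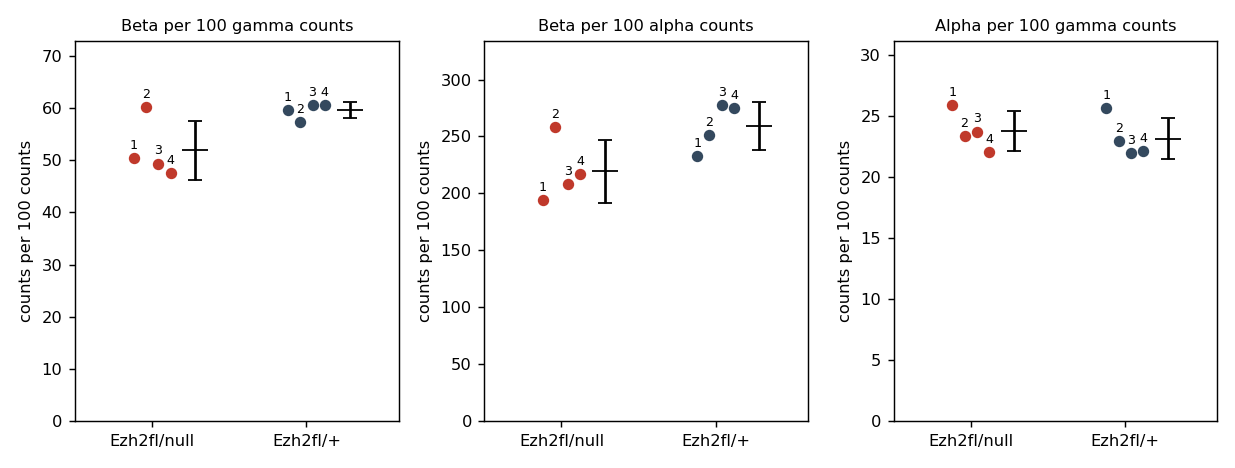
Counts of one cluster per 100 counts of another in each library (vertical axes), for the 4 libraries labelled Ezh2fl/null and the 4 labelled Ezh2fl/+; points carry their replicate number and bars give the mean and SD. Ezh2fl/null replicate 2, at 60.2 beta per 100 gamma counts, lies among the controls at 57.4 to 60.7, and the other Ezh2fl/null libraries at 47.6 to 50.4. Alpha and gamma counts are those of single rows.

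Ezh2fl/null replicate 2 was often the highest of its group in the beta genes, and this was not particular to them. It was the highest of the 4 libraries labelled Ezh2fl/null for 13 of the 21 beta genes, and the highest of all 8 for 9. The same count over all genes was not made. Of the 12 tested protocadherins outside the clusters, Pcdh7, Pcdh9, Pcdh11x, Pcdh15, Pcdh18 and Pcdh20 were also highest there within the group. Each of these but Pcdh20 was highest there of all 8 libraries. Pcdh7 was at 55.7 against 41.1 to 42.3 CPM and Pcdh9 at 65.4 against 46.2 to 52.5 CPM. Pcdh1, Pcdh8, Pcdh10, Pcdh17, Pcdh19 and Cdhr1 were not highest there, such as Pcdh17 (54.2 against 61.8 to 71.4 CPM). Without Ezh2fl/null replicate 2 the beta sum averaged 160 ± 5.36 CPM in the libraries labelled Ezh2fl/null (SD, n = 3). In those labelled Ezh2fl/+ it averaged 176 ± 11.1 CPM (SD, n = 4). Beta counts per 100 gamma counts averaged 49.1 ± 1.43 against 59.6 ± 1.55. With replicate 2 included, the Ezh2fl/null means were 168 ± 16.9 CPM and 51.9 ± 5.66 counts (SD, n = 4). The log2 ratio of the group means of the beta sum was -0.07 with all 8 libraries, and leaving out 1 library at a time gave -0.14 without Ezh2fl/null replicate 2, -0.11 without Ezh2fl/+ replicate 2, -0.04 without Ezh2fl/null replicate 1 or Ezh2fl/+ replicate 3, and -0.03 without Ezh2fl/null replicate 3. The other 3 gave -0.05 to -0.07. For beta counts per gamma count the log2 ratio was -0.20 with all 8 libraries, and between -0.16 without Ezh2fl/null replicate 4 and -0.28 without Ezh2fl/null replicate 2. Mitochondrially encoded genes took 14.35% of the counts in this library, 10.11% to 11.32% in the other 3 of its group and 8.405% to 14.04% in the controls. The part of this in the beta counts was not tested.

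In a list of candidate regulators of the clusters there was 1 call. Whether each listed gene acts on the clusters was not tested. The list holds the boundary factor Ctcf, the cohesin subunits and loaders that form loops between promoters and enhancers, and DNA methylation and chromatin genes such as Dnmt3b and Smchd1. Of 21 tested, 20 were not called, 0 passed as higher and 1 as lower, with a median log2 fold change of -0.06. Higher calls made up 8.35% of all genes tested and lower calls 3.46%. Ctcf averaged 211 ± 13.9 CPM in the libraries labelled Ezh2fl/null and 219 ± 4.56 CPM in those labelled Ezh2fl/+ (SD, n = 4 each), at log2 -0.06 with 95% limits of -0.16 to 0.05. The lower gene was Lbr, encoding the lamin B receptor of the inner nuclear membrane, with a mean of 176 ± 5.0 CPM under Ezh2fl/null and 202 ± 10.1 CPM under Ezh2fl/+ (SD, n = 4 each). Its log2 fold change was -0.20 with an SE of 0.05 and an edgeR adjusted p of 0.00868. This call was lost with libraries scaled by total counts alone (edgeR adjusted p = 0.0525, the highest of 17 alternatives that went down to 0.00107).

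Among 28 tested partners of protocadherin adhesion and signalling (kinases that the gamma proteins bind, the sheddase Adam10, the WAVE complex, neuroligins), 25 were not called, 1 passed as higher and 2 passed as lower, with a median of -0.05. This share of calls is near the 11.8% of all genes. Nlgn1, a postsynaptic adhesion protein, was at 181 ± 5.70 CPM in the libraries labelled Ezh2fl/null and 219 ± 7.66 CPM in those labelled Ezh2fl/+ (SD, n = 4 each; log2 -0.28, SE 0.04, edgeR adjusted p = 0.000471). Wasf3, a WAVE subunit, was at log2 -0.24 and the gamma-secretase subunit Psen2 at 0.28. The Wasf3 call was lost in 3 of 17 alternatives and the Psen2 call in 7 of 17.

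The protocadherin genes outside the clusters showed 1 call. Of 12 tested, 11 were not called, 0 passed as higher and 1 as lower, with a median of 0.16, and over all genes 11.8% were called. Pcdh20 stood at 7.42, 8.21, 7.02 and 6.98 CPM in the libraries labelled Ezh2fl/null and at 11.2, 10.9, 11.7 and 11.1 CPM in those labelled Ezh2fl/+, and the groups did not overlap. It fell by 0.60 on the log2 scale (SE 0.09, 95% limits -0.79 to -0.41; edgeR adjusted p = 0.000311) and passed in each of the 17 alternatives. Pcdh17, at log2 -0.22 with an edgeR adjusted p of 0.0663, passed in 3 of 17 alternatives, and Cdhr1, a photoreceptor cadherin, at 0.35 with an edgeR adjusted p of 0.075, in 3 as well.

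**Figure D5:**
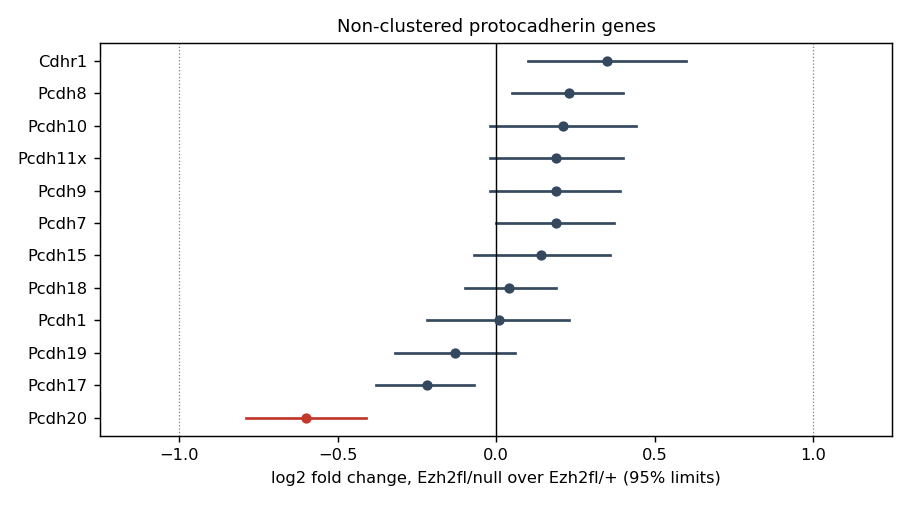
Log2 fold change of the 12 tested protocadherin genes outside the clusters, libraries labelled Ezh2fl/null over those labelled Ezh2fl/+ (horizontal axis); points are edgeR estimates, lines their 95% limits, dotted lines mark a 2-fold change, and red marks an adjusted p under 0.05. Pcdh20 at log2 -0.60 is the single call.

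Calls in both directions stood among other cadherins and recognition molecules of the retina. Over all genes tested, 8.35% were called higher and 3.46% lower. Of 16 cadherin genes with Cdh symbols tested, 2 were higher, 3 lower and 11 not called (median 0.03). Cdh12 was higher at log2 0.78 and Cdh13 at 0.26, and Cdh9 was lower at -0.97, Cdh6 at -0.41 and Cdh4 at -0.24. Of 15 self-avoidance and lamination receptors, 10 were not called, 4 passed as higher and 1 as lower (median 0.13). Megf10, a transmembrane protein used by starburst amacrine and horizontal cells for spacing and also among the amacrine and horizontal genes below, was at 70.1 ± 5.75 CPM in the libraries labelled Ezh2fl/null and 43.8 ± 4.54 CPM in those labelled Ezh2fl/+ (SD, n = 4 each; log2 0.68, SE 0.08, edgeR adjusted p = 3.17e-05). The related Megf11 was at log2 0.51, the semaphorin receptors Plxna4 at 0.42 and Plxna2 at 0.20, and the axonal adhesion protein gene Cntn2 at -0.69. The call of Cdh13 was lost in 5 of 17 alternatives, with the 6 libraries without Xist (edgeR adjusted p = 0.117) and without Ezh2fl/null replicate 1 (0.0528) or 2 (0.0613) or Ezh2fl/+ replicate 2 (0.0673) or 3 (0.073). Calls of Cdh4, Cntn2 and Megf11 were each lost in 1 of 17, with the 6 libraries without Xist, at edgeR adjusted p of 0.126, 0.0577 and 0.0834. Cdh6 and Plxna2 had edgeR adjusted p of 0.0245 and 0.0408, and their alternatives were not summarized.

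Genes listed as flanking the clusters or lying within them were called at a share near that of all genes. Of 21 tested, 2 were higher, 0 lower and 19 not called (median 0.01), where 11.8% of all genes were called. Taf7, a general transcription factor subunit that lies between the beta and gamma clusters (37640491 to 37644204, minus strand), averaged 65.7 ± 4.40 CPM in the libraries labelled Ezh2fl/null and 63.4 ± 2.23 CPM in those labelled Ezh2fl/+ (SD, n = 4 each; log2 0.05, 95% limits -0.07 to 0.18). The calls were Pura, a nucleic acid binding protein gene, at log2 0.56 and Rell2 at 0.36, the second lost in 6 of 17 alternatives. Rell2 lies downstream of the gamma cluster (37955079 to 37959179). Pura was not among the rows placed in the stretch examined around the clusters, and its distance was not measured.

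Marker genes of retinal and other cell types differed between the groups as follows, where 8.35% of all genes tested were called higher and 3.46% lower. Of 17 amacrine and horizontal cell genes tested, 9 were higher, 1 lower and 7 not called, and their summed level was 966 to 1070 CPM in the libraries labelled Ezh2fl/null and 672 to 707 CPM in those labelled Ezh2fl/+. Of 10 photoreceptor genes 7 passed as higher and 0 as lower (1080 to 1220 against 952 to 1030 CPM), and of 12 progenitor genes 0 were higher, 4 lower and 8 not called (3070 to 3640 against 3540 to 3980 CPM). Ganglion cell genes had 2 higher and 2 lower of 12, and neuronal maturation genes 2 higher and 1 lower of 16, at 6090 to 6630 against 6020 to 6590 CPM. Of the lists for other cells in the dissection, microglial genes summed to 48.0 to 55.0 against 34.8 to 42.3 CPM (4 of 9 higher). Mesenchymal genes summed to 45.5 to 101 against 40.5 to 72.5 CPM (4 of 10 higher). The mesenchymal calls were Prrx1, Pdgfra, Twist1 and Foxc1. Not called were Col1a1 (log2 0.17), Col1a2 (0.21), Col3a1 (0.72), Postn (0.66), Dcn (0.5) and Pdgfrb (-0.2). Endothelial genes summed to 264 to 313 against 330 to 360 CPM (1 higher and 1 lower of 4). Kdr, called lower, held most of the endothelial sum, at a mean of 281 against 332 CPM. Cldn5 was called higher, at a mean of 10.2 against 7.52 CPM. Pigment epithelial genes summed to 24.1 to 38.1 against 18.9 to 47.8 CPM (1 of 7 higher), lens genes to 4.02 to 12.7 against 3.29 to 16.8 CPM (0 of 2 called) and erythroid genes to 94.8 to 892 against 155 to 1330 CPM (0 of 7 called). Of 11 PRC2 genes, 9 were not called. Phf19, a PRC2 accessory subunit, was higher at log2 0.64 (edgeR adjusted p = 0.0119) in each of the 17 alternatives too. Aebp2, another accessory subunit, was lower at log2 -0.24 (edgeR adjusted p = 0.0437), and that call was lost in 9 of 17 alternatives, with adjusted p up to 0.363. The part of these lists in the protocadherin values was not tested.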

How the data were processed

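RNA sequencing of 8 peripheral retina samples was analysed, 4 labelled Ezh2fl/null and 4 labelled Ezh2fl/+, with groups and replicate numbers from the sample titles. The submitters' processing notes name Novoalign 2.08.01, the mm10 build and DESeq2. The deposited table holds whole-number counts per gene for 16096 genes, which the authors made from aligned reads, with the counting tool not stated. The authors also deposited FPKM values per library, a log2 ratio per gene and a score for its adjusted p, whose scale the file header does not give; the score was not used for calls.

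Counts were tested with edgeR 4.0.16 (quasi-likelihood, TMM, filterByExpr with a minimum count of 10, R 4.3.3). That left 15014 genes tested, 1082 were filtered out, and calls had a Benjamini-Hochberg adjusted p under 0.05. DESeq2 1.42.0, limma 3.58.1 voom, other scalings and filters, a replicate block, the 6 libraries without Xist and leaving out each library were alternatives. The fit was tested on simulated data. Gene model lengths implied by counts and FPKM were set against GENCODE M21 exon unions, and over 15833 genes the median ratio was 1.0007. Sequence sharing was counted over stretches of 50 bases. No 2 libraries of a group were the same library by a chi-square test of their counts.

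The members and the 18 gene lists were chosen with earlier results of these data known. Named beta genes are the 4 with the highest mean CPM and those with the highest and lowest fold change. From the other lists, called genes, up to 4 with the smallest p, are named. Lists of cell type markers are given by counts and sums. Endothelial and mesenchymal genes are also named, which was decided after their values were seen. Outside that rule Pcdhb3, Pcdhb5, Pcdhb7, Pcdhb21, Ctcf, Taf7, Pcdh17, Cdhr1, Cdh6 and Plxna2 were added after their values were seen. The other uncalled protocadherins outside the clusters, named for Ezh2fl/null replicate 2, were added in the same way. Cluster sums and ratios have no test.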

Additional observations from a re-analysis of the deposited data

Results flagged for a closer look

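Pcdhb20 in Ezh2fl/null replicate 2 stood apart from its group. It was at 9.96 CPM there, against 8.81, 8.72 and 8.77 CPM in the other libraries labelled Ezh2fl/null, and the gap to the nearest value was 0.928 of the group's range, above Dixon's critical value for 4 samples. The 56 groups examined in this way gave 1 such value, and chance gives about 1 in 20.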

How the results depend on the processing

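The count of clustered protocadherins called was 0 with DESeq2 size factors, total counts alone, either other filter, DESeq2, voom, the replicate block and without mitochondrially encoded genes. It was 1 with the 6 libraries without Xist (Pcdhb3, so 1 for the beta cluster) and 0 to 1 when 1 library was left out, for all members, for the alpha row and for the beta genes. The 1 was Pcdhb3 without Ezh2fl/null replicate 3, Pcdhb13 without Ezh2fl/null replicate 4 or Pcdha2 without Ezh2fl/+ replicate 1. Pcdhb17, at log2 0.03, was at -0.03 without Ezh2fl/null replicate 2 and at -0.03 without Ezh2fl/+ replicate 2, and leaving out 1 library gave -0.03 to 0.09. Over all genes, 1055 were called with the 6 libraries without Xist, a smaller set of samples, against 1773, with 978 shared. Of the 1773 calls 70.7% were higher, and with total counts alone 82.5% of 1562. With total counts alone, 0 of the candidate regulators were called. Protocadherins outside the clusters had 2 calls with DESeq2, 3 with the replicate block, and 1 to 2 when 1 library was left out. Ezh2 was at log2 0.20 with DESeq2 (adjusted p = 0.0423), at 0.21 with the replicate block (edgeR adjusted p = 0.025), and at 0.16 to 0.26 when 1 library was left out, called without Ezh2fl/null replicate 4. For these changes the cause was not tested. Same-numbered libraries had correlations of 0.234, -0.0867, 0.00546 and 0.17, and libraries with different numbers from -0.216 to 0.163. Replicates 1 and 4 lay above that range and replicates 2 and 3 within it. These values do not settle whether the numbers pair samples. Under the replicate block 1676 genes were called.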

Other observations

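A pair of antisense rows lies over the clusters. Gm26672 (chromosome 18, 37746559 to 37768242, minus strand, over the gamma cluster) averaged 21.3 ± 1.35 CPM in the libraries labelled Ezh2fl/null and 19.6 ± 2.36 CPM in those labelled Ezh2fl/+ (SD, n = 4 each; log2 0.13, edgeR adjusted p = 0.416). Gm10545 (37008868 to 37020679, minus strand, over the alpha cluster) averaged 2.74 ± 0.640 CPM in the libraries labelled Ezh2fl/null and 2.58 ± 0.276 CPM in those labelled Ezh2fl/+ (SD, n = 4 each; log2 0.09, edgeR adjusted p = 0.823). The sources used here do not say whether counting used strand. Where exons of these rows overlap exons of protocadherin genes on the plus strand, their reads may not have been told apart. Whether such exons overlap is not set out here, as the positions given are those of whole genes.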
